A study of Mus musculus with 9 samples.

Results

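Lysosome and autophagy genes were followed across 9 RNA sequencing libraries of mouse brain tissue labelled as mesencephalon (midbrain). The set was chosen by name, as 33 listed genes, and all 33 were found among the 28991 genes of the deposited table. They comprise 9 lysosomal hydrolases, 3 lumen proteins, 6 membrane proteins, the transcription factor Tfeb, and 14 genes of the autophagy machinery. All animals were C57BL/6 mice. The MPTP+PF4 group received MPTP into the peritoneum for 7 days together with intravenous PF4 given every 3 days for the whole experiment. The MPTP group received MPTP alone, and the Control group received saline. Each group held 3 libraries, from 3 mice per the series design. MPTP is a toxin taken up by dopaminergic neurons and used to model Parkinson's disease, and PF4, or platelet factor 4, is a platelet-derived chemokine.

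Lysosomes are acidic organelles in which hydrolases break down proteins, lipids and glycans. In macroautophagy, a membrane grows around cytosolic cargo, is coated with lipid-bound proteins of the Atg8 family, closes, and fuses with a lysosome. Inherited defects of several of these genes cause lysosomal storage disease of the brain, and impaired lysosomal clearance is studied in Parkinson's disease because alpha-synuclein is degraded by this route.

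Library totals lay between 32216850 and 36039211 counts, and no pair of libraries agreed within sampling noise. The tissue label was checked with marker transcripts, given here as CPM, the count scaled to a library total that was adjusted by the TMM method. Slc6a3, the dopamine transporter, stood at 0.338, 102 and 0.402 CPM in MPTP+PF4 libraries 1, 2 and 3, at 0.055, 0.958 and 0.122 CPM in MPTP libraries, and at 0.393, 574 and 526 CPM in Control libraries. The dopamine receptor gene Drd1, a striatal marker, showed the opposite order, at 218, 7.74 and 398 CPM in MPTP+PF4 libraries, 170, 44.5 and 318 CPM in MPTP libraries and 158, 4.04 and 4.80 CPM in Control libraries. Th, tyrosine hydroxylase, was above 50 CPM only in MPTP+PF4 2, Control 2 and Control 3, and the midbrain factor Gata3 was at or below 0.09 CPM in the other 6 libraries. Adora2a, a striatal adenosine receptor, was below 3 CPM in the same 3 libraries and above 25 CPM in the others. The 6 libraries other than MPTP+PF4 2, Control 2 and Control 3 therefore carried little of the defining transcripts of their labelled tissue. Because Control 2 and Control 3 are the controls of this kind, values that separate MPTP from Control cannot be told apart from values that separate these libraries. In bulk tissue, fewer cells of a type and less RNA per cell cannot be told apart either.

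All 33 genes were well above the counting floor. The smallest count of any of them in any library was 164, for Tfeb, where 3 counts correspond to 0.0832 to 0.0931 CPM. Levels of different genes were compared as FPKM, the deposited values scaled for transcript length. Psap (prosaposin, the precursor of the saposins that help lipid hydrolases) had the highest median over the 9 libraries, at 586 FPKM. It was followed by Gabarapl1 at 360, Lamp1 at 214, Sqstm1 at 188, Ctsd at 171, Ctsb at 136 and Gabarap at 111 FPKM. Psap (417 to 630 FPKM) was above Gabarapl1 (304 to 579 FPKM) in each of the 9 libraries, although their ranges overlapped. Lamp1 (175 to 292 FPKM), Sqstm1 (135 to 242 FPKM) and Ctsd (124 to 369 FPKM) overlapped with each other. The 4 lowest medians were those of Optn (6.38 FPKM), Atg7 (5.91 FPKM), Gla (3.79 FPKM) and Tfeb (3.50 FPKM). Between libraries, Gabarapl2 was the steadiest in CPM, with a highest value 1.22 times its lowest. Map1lc3a was the least steady, with a ratio of 6.87.

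The comparison of MPTP with Control asked how the toxin altered the tissue. In this comparison 10 of the 33 genes had an unadjusted p under 0.05 and all 10 were lower in MPTP, among them Map1lc3a, Npc2, Tfeb, Gabarap and Ctsd. None passed the adjusted threshold of 0.05 (edgeR quasi-likelihood test, Benjamini-Hochberg adjustment over 17285 genes), and the share of all genes called was 0%. The smallest adjusted p of the 33 was 0.261. At an unadjusted p under 0.05, 30.3% of the 33 genes and 18.2% of all genes tested were counted, and 12.9% of all genes were counted as lower against 5.32% as higher. In 7 of the 33 genes every MPTP library lay below every Control library, beside 9.19% of all genes, and in 0 every MPTP library lay above, beside 9.01% of all genes. The median log2 fold change was -0.09 for the 33 genes and 0.01 for all genes tested, with 21 of the 33 genes below 0 beside 49.1% of all genes.

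The comparison of MPTP+PF4 with MPTP asked what PF4 added, and no member separated the groups. None of the 33 genes passed the adjusted threshold (0% of all genes called, edgeR), and DESeq2 called 0 of them, beside 0.0926% of all genes. At an unadjusted p under 0.05 there were 0 members, beside 2.01% of all genes (0.648% higher and 1.36% lower). No member had groups that did not overlap, beside 7.12% of all genes (3.04% higher and 4.07% lower). The log2 fold changes ran from -0.34 (Gaa) to 0.21 (Gla), with a median of 0.05 and 24 of 33 above 0. For all genes the median was 0.02, with 46.6% below 0. Tissue differed here too: Slc6a3 was at 102 CPM in MPTP+PF4 2 and at most 0.958 CPM in the other MPTP+PF4 and MPTP libraries. Its part in these values was not tested. Without MPTP+PF4 2 the members' median turned to -0.035, beside 0.0023 for all genes. Without MPTP+PF4 3 the members' median was 0.088, beside -8.96e-05 for all genes. In that fit the groups did not overlap for 9 members (27.3%, beside 16.2% of all genes). Leaving out MPTP 2 moved the Gaa value to 0.08, and leaving out MPTP+PF4 2 moved it to -0.83.

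The comparison of MPTP+PF4 with Control uses the same Control libraries as that of MPTP with Control, so the values of both are given side by side below and are not independent. By unadjusted p, Tfeb, Map1lc3a, Gabarap and Npc2 were lower in MPTP+PF4 and Asah1 was higher. No gene passed the adjusted threshold (0% of all genes, edgeR), DESeq2 called 0 of the 33 beside 0.0579% of all genes, and the smallest edgeR adjusted p of the 33 was 0.268. At an unadjusted p under 0.05, 7 genes were lower (12.1% of all genes) and 1, Asah1, was higher (6.25% of all genes). The groups did not overlap for 5 genes lower in MPTP+PF4 (6.78% of all genes) and for Asah1 (5.61% of all genes higher). The median log2 fold change was -0.21 for the 33 genes and -0.00 for all genes, with 21 of 33 below 0 beside 50.2% of all genes.

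**Figure D1:**
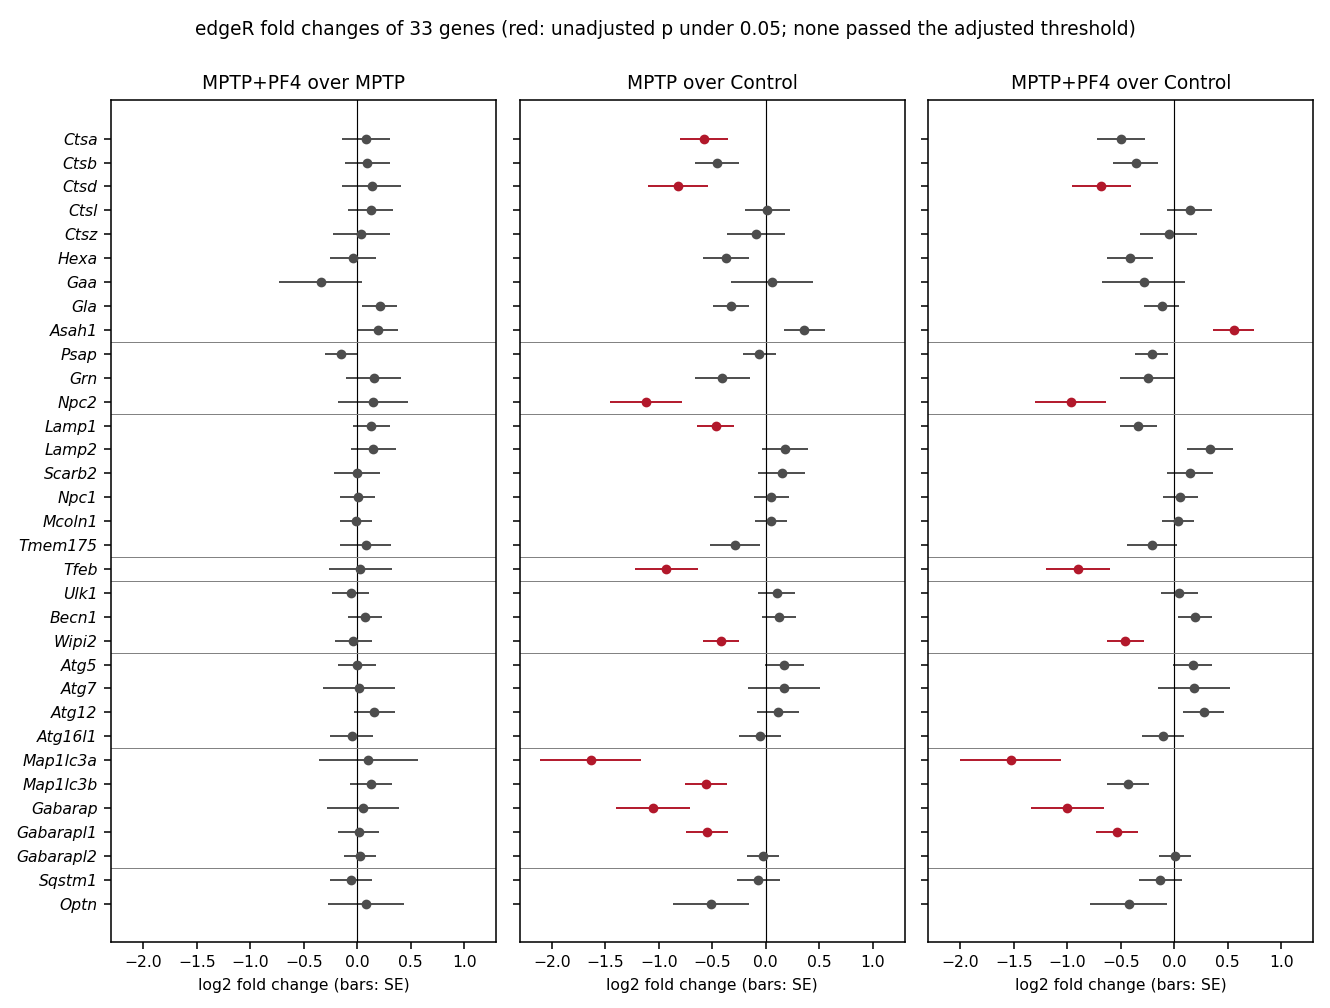
Log2 fold changes of the 33 genes (x axis) by gene (y axis) in MPTP+PF4 over MPTP, MPTP over Control and MPTP+PF4 over Control; points are edgeR estimates, bars are standard errors, and red marks an unadjusted p under 0.05. The left panel has 0 red points, the middle panel 10 and the right panel 8, and Asah1 is the only red point above 0.

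The larger differences from Control went with the high level of Control 2 and Control 3, while Control 1 resembled the libraries given MPTP. Another fit kept Control 1 as the only control and also left out MPTP+PF4 2. The median log2 fold change of the 33 genes was then -0.11 for MPTP over Control and -0.12 for MPTP+PF4 over Control. The medians of all genes in that fit were 0.02 and 0.01. With 1 control library, these values cannot tell a difference between groups from the level of that library. Control 2 and Control 3 were both above the other 7 libraries for 13 of the 33 genes (39.4%), beside 25% of all genes tested. They were both below the other 7 libraries for 2, Asah1 and Atg5 (6.06%), beside 23.9% of all genes. Control 1 lay within the range of the 6 MPTP and MPTP+PF4 libraries for 29 of the 33 genes (87.9%), beside 87.5% of all genes. Control 2 did so for 11 genes (33.3%, beside 31.5%) and Control 3 for 12 (36.4%, beside 40.7%). Together the 33 genes took 0.629%, 0.772% and 0.543% of the counts of MPTP+PF4 libraries 1, 2 and 3, 0.681%, 0.729% and 0.646% in MPTP libraries, and 0.700%, 0.916% and 0.836% in Control libraries. MPTP+PF4 2 was the highest of its group for 25 of the 33 genes (75.8%), beside 39.9% of all genes, and MPTP+PF4 3 was the lowest of the 9 libraries for 13 (39.4%), beside 20.8%.

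**Figure D2:**
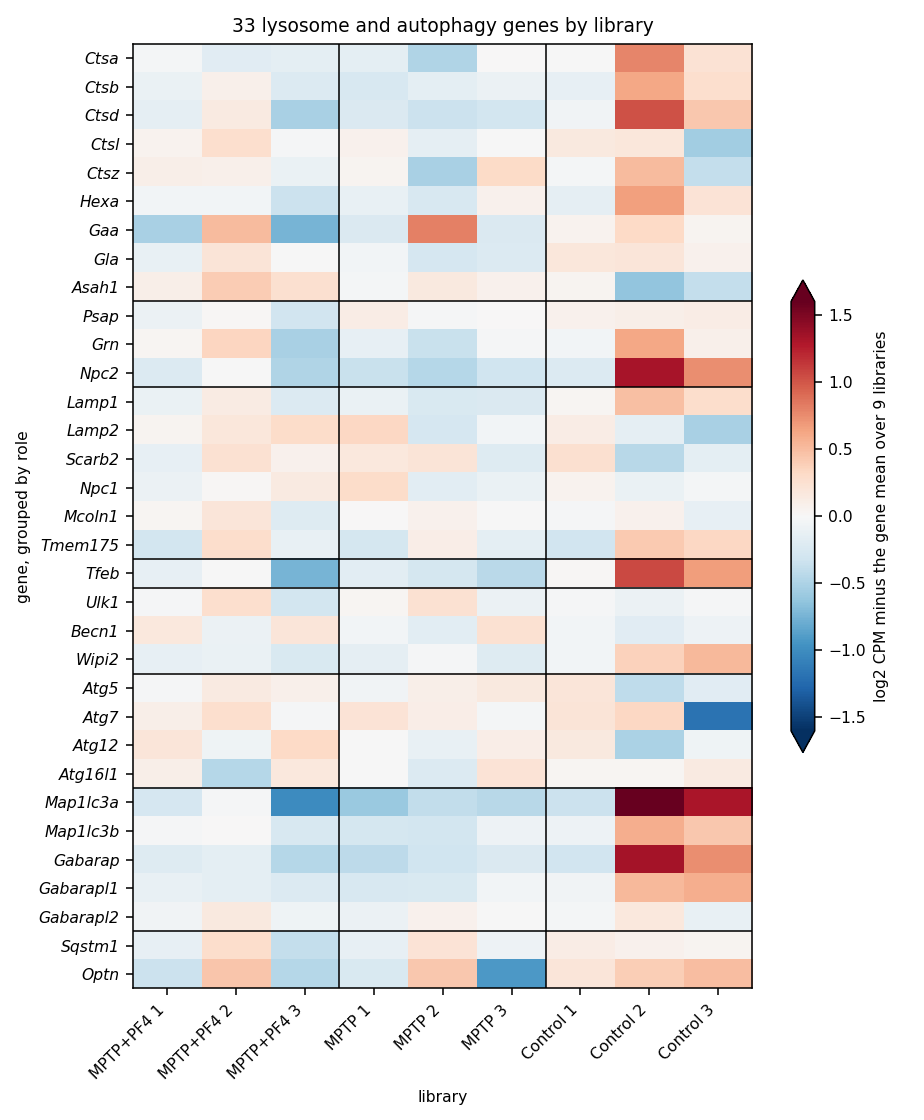
Level of the 33 genes in each of the 9 libraries, as log2 CPM minus the mean of that gene over the libraries; lines separate the groups (columns) and the roles (rows). The red cells gather in Control 2 and Control 3, with Map1lc3a, Gabarap, Npc2, Tfeb and Ctsd the deepest, while Control 1 resembles the MPTP and MPTP+PF4 columns, and Asah1 and Atg5 run the other way.

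Tfeb, the basic helix-loop-helix factor that switches on lysosomal and autophagy genes when it enters the nucleus, lies at chr17:47737030-47792419 (GRCm38, plus strand). Its transcript stood at 8.39, 9.08 and 5.49 CPM in MPTP+PF4 libraries, 8.16, 7.53 and 6.82 CPM in MPTP libraries and 9.31, 19.0 and 14.6 CPM in Control libraries. Every library given MPTP lay below every Control library, though Control 1 was only just above MPTP+PF4 2. For Tfeb the log2 fold change was -0.93 for MPTP over Control (SE 0.30, edgeR adjusted p 0.261), -0.90 for MPTP+PF4 over Control (SE 0.30, adjusted p 0.268) and 0.03 for MPTP+PF4 over MPTP. With Control 1 as the only control and MPTP+PF4 2 also left out, these were -0.31 for MPTP and -0.42 for MPTP+PF4 over Control.

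TFEB binds DNA at E-box sequences, and its lysosomal targets are known for an extended E-box near their start sites, so the promoters were searched for the core CACGTG and for TCACGTG on either strand. The core is its own reverse complement, and each TCACGTG match holds a core match. Promoters from RefSeq (GRCm38.p6, 250 bases before to 50 after the start site) matched 26 of the 33 genes. The core was present in 9 of the 26 (34.6%), beside 7.15% of all 32851 promoters of the same length and 11.1% of the tested genes with a promoter. The longer form was present in 7 of the 26 (26.9%: Ctsa, Ctsd, Gaa, Gla, Lamp1, Mcoln1 and Atg7), beside 3.77% of all promoters and 6.46% of the tested genes. Lamp1 held 4 matches, and Ctsa, Ctsd, Gla and Mcoln1 held 2 each. The 250 bases before the start site are shown 5′ to 3′ for 4 of these genes, since each holds 2 or more matches. Capitals mark CACGTG. They lie at chr7:142387828-142388077 (Ctsd, minus strand), chr8:13158911-13159160 (Lamp1, plus strand), chr8:3500269-3500518 (Mcoln1, plus strand) and chrX:134601006-134601255 (Gla, minus strand). Start sites are RefSeq's, and the GENCODE genes of Ctsd, Mcoln1 and Gla begin further upstream.
Ctsd: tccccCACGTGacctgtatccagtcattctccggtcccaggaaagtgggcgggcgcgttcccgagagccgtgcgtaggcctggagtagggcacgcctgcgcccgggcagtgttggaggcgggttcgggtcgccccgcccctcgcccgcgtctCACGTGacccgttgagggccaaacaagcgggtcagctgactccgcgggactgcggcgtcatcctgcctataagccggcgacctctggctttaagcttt
Lamp1: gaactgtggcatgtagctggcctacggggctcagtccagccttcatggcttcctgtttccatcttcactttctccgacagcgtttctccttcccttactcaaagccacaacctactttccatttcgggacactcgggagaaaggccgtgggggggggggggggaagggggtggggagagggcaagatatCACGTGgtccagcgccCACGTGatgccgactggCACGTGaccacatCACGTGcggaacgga
Mcoln1: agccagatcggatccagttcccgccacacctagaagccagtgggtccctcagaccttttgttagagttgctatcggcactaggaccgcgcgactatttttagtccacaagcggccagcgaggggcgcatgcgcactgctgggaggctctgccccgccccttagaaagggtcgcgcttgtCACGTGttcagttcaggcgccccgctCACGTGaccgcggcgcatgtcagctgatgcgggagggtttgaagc
Gla: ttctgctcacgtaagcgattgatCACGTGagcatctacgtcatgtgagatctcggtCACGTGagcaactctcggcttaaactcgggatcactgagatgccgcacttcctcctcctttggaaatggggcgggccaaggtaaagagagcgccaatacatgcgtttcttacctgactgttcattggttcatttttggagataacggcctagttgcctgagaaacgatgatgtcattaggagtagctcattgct
The level of Mcoln1, the TRPML1 calcium channel of the lysosomal membrane, was 34.6 to 45.5 CPM over the 9 libraries. Its log2 fold change was 0.05 for MPTP over Control (SE 0.15), beside -0.47 (SE 0.18) for Lamp1 with its 4 matches, and the difference between the genes was not tested. Gla, alpha-galactosidase A, stood at 11.5, 14.4 and 12.4 CPM in MPTP+PF4 libraries, 12.1, 10.3 and 10.7 CPM in MPTP libraries and 14.2, 14.3 and 13.1 CPM in Control libraries. The MPTP libraries all lay below the Control libraries, and the log2 fold change was -0.33 (SE 0.17, edgeR adjusted p 0.298). Over the 7 genes with the longer form the median log2 fold change for MPTP over Control was -0.33, with 4 of 7 below 0. Over the 19 genes with a matched promoter without it the median was -0.29, with 14 of 19 below 0. A match describes the letters of the window and not binding, which was not measured.

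**Figure D3:**
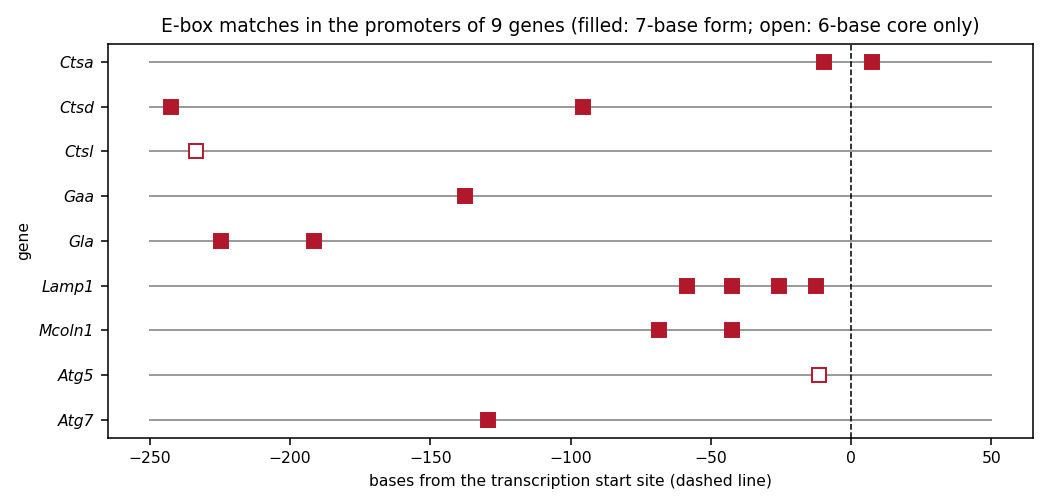
Position of each CACGTG match in the promoters of the 9 genes that hold one, in bases from the transcription start site (x axis, dashed line at 0) by gene (y axis); filled squares are TCACGTG on either strand and open squares the core alone. Lamp1 has 4 matches within 61 bases of the start site and Mcoln1 has 2 within 71 bases, while those of Gla lie 189 to 227 bases before it.

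Among the 9 hydrolases, 2 were lower in MPTP than in Control at an unadjusted p under 0.05 (Ctsd and Ctsa; 22.2%, beside 12.9% of all genes), 0 were higher (5.32% of all genes), and the median log2 fold change was -0.33. Ctsd, the aspartic protease cathepsin D, which degrades alpha-synuclein, stood at 387, 473 and 298 CPM in MPTP+PF4 libraries, 366, 338 and 351 CPM in MPTP libraries and 413, 867 and 575 CPM in Control libraries. All 3 MPTP libraries lay below all Control libraries, and MPTP+PF4 2 lay above Control 1. The log2 fold change of Ctsd was -0.82 for MPTP over Control (SE 0.28, edgeR adjusted p 0.261), -0.68 for MPTP+PF4 over Control (SE 0.28, adjusted p 0.268) and 0.14 for MPTP+PF4 over MPTP. Ctsa, a carboxypeptidase that protects beta-galactosidase, stood at 116, 104 and 106 CPM in MPTP+PF4, 105, 84.3 and 118 CPM in MPTP and 118, 203 and 138 CPM in Control libraries, with a log2 fold change of -0.58 for MPTP over Control. Ctsb, a cysteine protease, and Hexa, the alpha subunit of beta-hexosaminidase, had the same shape with smaller differences, at -0.45 and -0.37 for MPTP over Control, and neither had an unadjusted p under 0.05.

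Asah1, acid ceramidase, ran against Ctsd and Ctsa. It stood at 76.2, 94.4 and 85.3 CPM in MPTP+PF4 libraries, 69.4, 79.4 and 74.7 CPM in MPTP libraries and 73.3, 46.0 and 54.8 CPM in Control libraries. All 3 MPTP+PF4 libraries lay above all Control libraries, and Control 1 lay inside the MPTP range. The log2 fold change was 0.56 for MPTP+PF4 over Control (SE 0.19, edgeR adjusted p 0.268), 0.36 for MPTP over Control (SE 0.19) and 0.19 for MPTP+PF4 over MPTP (SE 0.19). Without Control 2, Control 3 and MPTP+PF4 2 it was 0.14 for MPTP+PF4 over Control and 0.02 for MPTP over Control.

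Gaa, the acid alpha-glucosidase that degrades glycogen, had no order by group. It stood at 276, 563 and 236 CPM in MPTP+PF4 libraries, 336, 692 and 336 CPM in MPTP libraries and 412, 492 and 406 CPM in Control libraries. The groups overlapped in every comparison, and the libraries numbered 2, which the labels do not pair, were the highest of each group, by a smaller margin in Control. Its log2 fold change of -0.34 for MPTP+PF4 over MPTP had an SE of 0.39. Of the 33 genes, Gla had the smallest unadjusted p in that comparison, 0.244, with a log2 fold change of 0.21 (SE 0.17). Ctsz, a cysteine carboxypeptidase of microglia and macrophages, was lowest in MPTP 2 (25.3 CPM) and Control 3 (27.7 CPM). These were also the libraries with the lowest summed level of 12 microglial markers. That sum was 364 CPM in MPTP 2 and 289 CPM in Control 3, within a range of 289 to 681 CPM. The highest values did not match: Ctsz was highest in Control 2 (51.2 CPM), where the markers summed to 564 CPM. In MPTP+PF4 1, with the highest sum of 681 CPM, Ctsz stood at 38.5 CPM. The part of these cells in the Ctsz values was not tested. Ctsl, another cysteine protease, ran from 73.6 CPM in Control 3 to 131 CPM in MPTP+PF4 2.

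Of the 3 lumen proteins only Npc2, the soluble protein that hands cholesterol to Npc1, was lower in MPTP at an unadjusted p under 0.05. Npc2 (chr12:84754562-84773152, GRCm38) stood at 87.0, 101 and 73.0 CPM in MPTP+PF4 libraries, 79.7, 73.7 and 81.5 CPM in MPTP libraries and 87.2, 253 and 171 CPM in Control libraries. Control 2 and Control 3 were far above the other 7 libraries, and Control 1 lay within the range of the MPTP+PF4 libraries. For Npc2 the log2 fold change was -1.12 for MPTP over Control (SE 0.33, edgeR adjusted p 0.261), -0.97 for MPTP+PF4 over Control (SE 0.33, adjusted p 0.268) and 0.15 for MPTP+PF4 over MPTP. Its partner Npc1, the membrane sterol transporter, showed no such step: it ran from 82.1 to 114 CPM over the 9 libraries, with a log2 fold change of 0.05 for MPTP over Control (SE 0.16). Psap stood at 1451, 1565 and 1252 CPM in MPTP+PF4 libraries, 1673, 1519 and 1547 CPM in MPTP libraries and 1625, 1645 and 1673 CPM in Control libraries, with a log2 fold change of -0.15 for MPTP+PF4 over MPTP (SE 0.15). Grn, progranulin, which chaperones lysosomal enzymes, was highest in Control 2 (88.2 CPM) and MPTP+PF4 2 (73.0 CPM) and lowest in MPTP+PF4 3 (40.3 CPM).

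Of the 6 membrane proteins, 1 (Lamp1) was lower in MPTP than in Control at an unadjusted p under 0.05, beside 12.9% of all genes. Lamp1, the abundant glycoprotein that lines the lysosome, stood at 478, 562 and 441 CPM in MPTP+PF4 libraries, 479, 433 and 439 CPM in MPTP libraries and 527, 719 and 624 CPM in Control libraries. The MPTP libraries lay below all Control libraries, and MPTP+PF4 2 lay above Control 1. Lamp1 had a log2 fold change of -0.47 for MPTP over Control (SE 0.18, edgeR adjusted p 0.261) and 0.13 for MPTP+PF4 over MPTP (SE 0.18). Lamp2, its relative that also serves chaperone-mediated autophagy, stood at 116, 129 and 139 CPM in MPTP+PF4 libraries, 142, 93.9 and 109 CPM in MPTP libraries and 123, 102 and 79.1 CPM in Control libraries. Its groups overlapped. Control 3 was the lowest library for Lamp2 and Control 2 lay within the MPTP range, while Lamp1 was highest in Control 2 and Control 3. Scarb2, which carries glucocerebrosidase to the lysosome, was lowest in Control 2 (130 CPM), within a range of 130 to 211 CPM. Tmem175, an ion channel of the lysosomal membrane linked to Parkinson's disease risk, was highest in Control 2 (65.6 CPM), Control 3 (61.8 CPM) and MPTP+PF4 2 (59.7 CPM), and ran from 39.8 to 52.9 CPM in the other 6 libraries. Those 3 libraries are the ones with Slc6a3 above 100 CPM, and the part of tissue composition in the Tmem175 values was not tested. The median log2 fold change of the 6 membrane genes was 0.05 for MPTP over Control.

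The Atg8 family held the member with the largest fold change, Map1lc3a. Its members are the small proteins that are bound to the lipid of the growing autophagosome and recruit cargo receptors. For MPTP over Control, 4 of the 5 had an unadjusted p under 0.05, all lower, beside 12.9% of all genes, and the median log2 fold change was -0.56. Map1lc3a (chr2:155276297-155278073, GRCm38) stood at 101, 121 and 61.0 CPM in MPTP+PF4 libraries, 80.8, 92.8 and 89.7 CPM in MPTP libraries and 96.3, 419 and 303 CPM in Control libraries. It averaged 94.4 ± 30.5 CPM in MPTP+PF4 libraries, 87.8 ± 6.24 CPM in MPTP libraries and 273 ± 163 CPM in Control libraries (SD, n = 3 each). The high mean of the Control group and its wide SD came from Control 2 and Control 3, since Control 1 lay between MPTP+PF4 1 and MPTP 2. In the fit Map1lc3a had a log2 fold change of -1.63 for MPTP over Control (SE 0.47, edgeR adjusted p 0.261), -1.53 for MPTP+PF4 over Control (SE 0.47, adjusted p 0.268) and 0.10 for MPTP+PF4 over MPTP (SE 0.46). DESeq2 gave Map1lc3a an adjusted p of 0.0428 for MPTP over Control, the only member it called, in a fit that called 1.66% of all genes.

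Gabarap (chr11:69991143-69994951, GRCm38) had the same shape, at 161, 167 and 136 CPM in MPTP+PF4 libraries, 139, 149 and 158 CPM in MPTP libraries and 150, 465 and 311 CPM in Control libraries. Control 1 lay inside the MPTP range, and the log2 fold change was -1.05 for MPTP over Control (SE 0.34, edgeR adjusted p 0.261) and -1.0 for MPTP+PF4 over Control (SE 0.34, adjusted p 0.268). Map1lc3b, the form most often used to mark autophagosomes, stood at 220, 224 and 188 CPM in MPTP+PF4 libraries, 184, 182 and 212 CPM in MPTP libraries and 212, 335 and 303 CPM in Control libraries, with a log2 fold change of -0.56 for MPTP over Control (SE 0.20, adjusted p 0.261). Gabarapl1, the most abundant of the 5 in FPKM, stood at 671, 658 and 626 CPM in MPTP+PF4 libraries, 610, 618 and 709 CPM in MPTP libraries and 703, 1043 and 1091 CPM in Control libraries, with a log2 fold change of -0.55 (SE 0.19, adjusted p 0.261). The fifth of the family, Gabarapl2, also known as GATE-16, stood at 186, 217 and 185 CPM in MPTP+PF4 libraries, 181, 203 and 193 CPM in MPTP libraries and 190, 219 and 179 CPM in Control libraries. Its groups overlapped throughout, and its log2 fold change for MPTP over Control was -0.02 (SE 0.15).

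**Figure D4:**
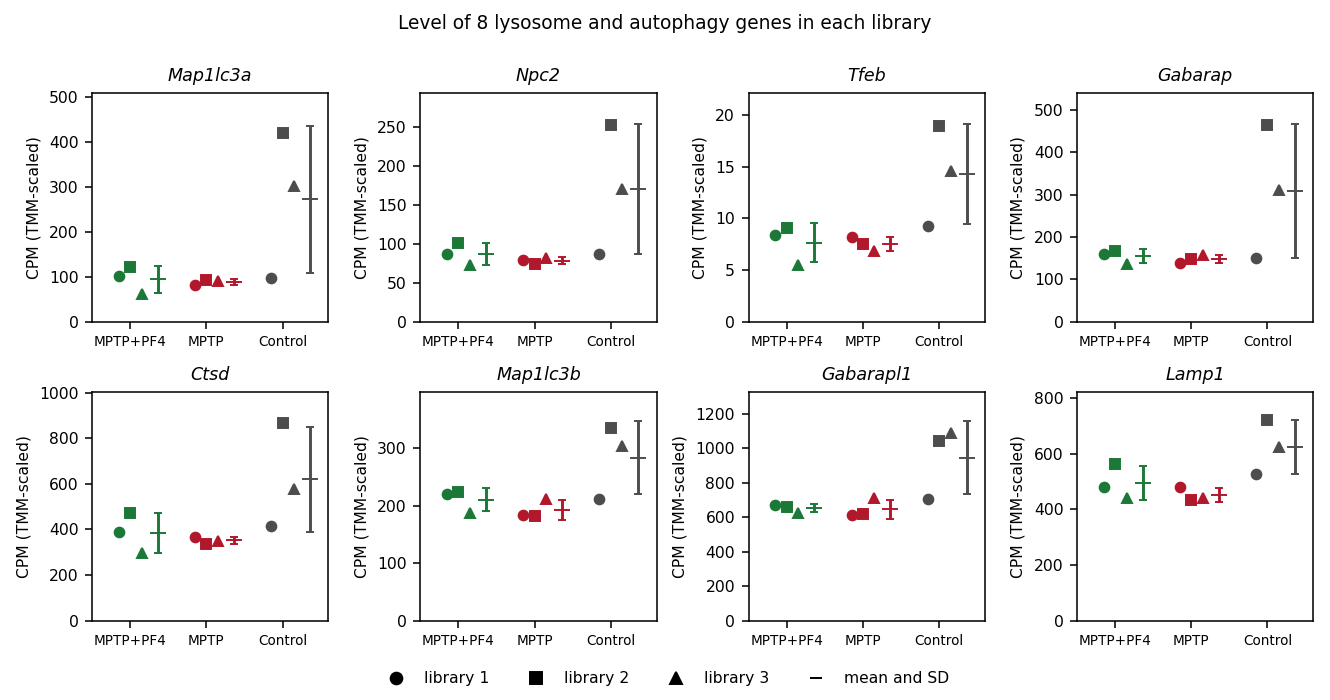
Level in CPM (y axis, from 0) of the 8 genes with the smallest unadjusted p for MPTP against Control, in MPTP+PF4, MPTP and Control libraries; symbols give the library number, and bars beside the points give the mean and SD of 3 libraries. In each panel Control 2 and Control 3 are the highest points, and Control 1 sits near the MPTP and MPTP+PF4 points.

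Of the 3 upstream autophagy genes, 1 (Wipi2) had an unadjusted p under 0.05 in either comparison with Control, beside 18.2% of all genes for MPTP and 18.3% for MPTP+PF4. Ulk1, the kinase that starts autophagy, stood at 54.2, 65.9 and 44.8 CPM in MPTP+PF4 libraries, 56.0, 64.6 and 51.2 CPM in MPTP libraries and 54.3, 51.5 and 53.9 CPM in Control libraries, and its groups overlapped. Becn1, a subunit of the lipid kinase complex that acts after it, ran from 101 to 136 CPM with a log2 fold change of 0.12 for MPTP over Control (SE 0.16). Wipi2, which reads the lipid made by that complex and recruits Atg16l1, stood at 96.0, 97.7 and 88.9 CPM in MPTP+PF4 libraries, 95.3, 103 and 90.9 CPM in MPTP libraries and 102, 135 and 151 CPM in Control libraries. All 3 MPTP+PF4 libraries lay below all Control libraries, while MPTP 2 lay above Control 1. The log2 fold change of Wipi2 was -0.46 for MPTP+PF4 over Control (SE 0.17, edgeR adjusted p 0.268) and -0.42 for MPTP over Control (SE 0.17, adjusted p 0.265).

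None of the 4 conjugation genes had an unadjusted p under 0.05 in any comparison, and their median log2 fold change was 0.14 for MPTP over Control. Atg7, the activating enzyme for both conjugation systems, stood at 21.2, 24.0 and 19.7 CPM in MPTP+PF4 libraries, 23.2, 21.5 and 19.6 CPM in MPTP libraries and 23.1, 25.2 and 8.79 CPM in Control libraries. Control 3 alone was low. Atg5, Atg12 and Atg16l1, which form the complex that attaches lipid to the Atg8 proteins, ran from 20.4 to 31.0, from 49.3 to 87.3 and from 31.4 to 50.5 CPM. The lowest library was Control 2 for Atg5 and Atg12 and MPTP+PF4 2 for Atg16l1.

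Both receptor genes had groups that overlapped in every comparison. Sqstm1, known as p62, which links ubiquitin-tagged cargo to Atg8 proteins, stood at 390, 515 and 327 CPM in MPTP+PF4 libraries, 388, 495 and 401 CPM in MPTP libraries and 462, 447 and 438 CPM in Control libraries. Optn, optineurin, a receptor for damaged mitochondria, stood at 12, 20.6 and 11 CPM in MPTP+PF4 libraries, 12.8, 20.5 and 8.0 CPM in MPTP libraries and 17.4, 19.9 and 21.4 CPM in Control libraries. For both, library 2 was the highest of the MPTP+PF4 and of the MPTP group, as it was for 11 of the 33 genes (33.3%), beside 24% of all genes. MPTP 2 and MPTP+PF4 2 also had the lowest Drd1 of their groups, and the part of striatal tissue in these values was not tested.

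The result of the comparison with Control turned on which control libraries were in the fit. Without Control 1, 12 of the 33 genes passed the adjusted threshold for MPTP over Control: Map1lc3a, Npc2, Gabarap, Tfeb, Ctsd, Ctsa, Gabarapl1, Map1lc3b, Lamp1, Wipi2 and Ctsb were lower and Asah1 was higher. In the same fit 25.8% of all genes passed, 14% lower and 11.9% higher, and at an unadjusted p under 0.05 the shares were 45.5% of the 33 genes and 42.3% of all genes. For MPTP+PF4 over Control, 9 of the 33 genes passed without Control 1, beside 25.6% of all genes (13.2% lower and 12.4% higher). Without Control 1 and MPTP+PF4 2, 12 passed for MPTP over Control beside 32% of all genes, and 11 for MPTP+PF4 over Control beside 34%. Without Control 2, 2 of the 33 genes (Map1lc3a and Npc2) had an unadjusted p under 0.05 for MPTP over Control, 6.06% beside 5.9% of all genes. Without Control 3, 6 did, 18.2% beside 8.32% of all genes. Without Control 2, Control 3 and MPTP+PF4 2, which leaves Control 1 assumed to vary like the other groups, 0 of the 33 genes did, beside 1.36% of all genes. The log2 fold change of Map1lc3a for MPTP over Control was -2.04 without Control 1, -1.18 without Control 2 and -0.14 without Control 2, Control 3 and MPTP+PF4 2, and that of Gabarap was -1.38, -0.63 and -0.02.

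**Figure D5:**
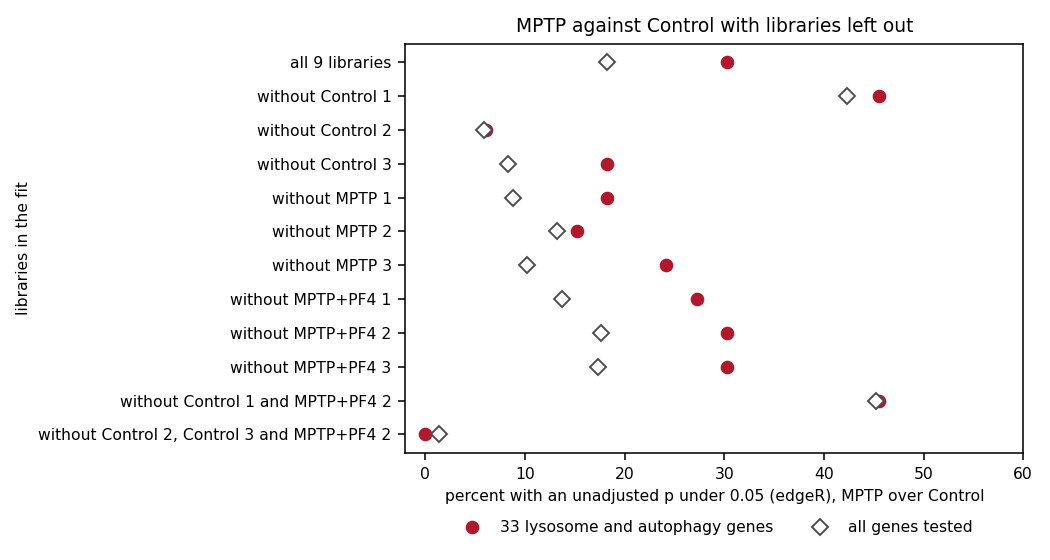
Percent of genes with an unadjusted p under 0.05 for MPTP over Control (x axis, edgeR) with the named libraries left out (y axis); filled circles are the 33 lysosome and autophagy genes and open diamonds all genes tested. Without Control 1 both shares are above 40% (45.5% and 42.3%), and without Control 2, Control 3 and MPTP+PF4 2 they are 0% and 1.36%.

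Other measures moved with the same libraries, and their part in the results was not tested. The median log2 CPM of 77 cytosolic ribosomal protein genes was 7.05, 7.01 and 6.80 in MPTP+PF4 libraries, 6.76, 6.92 and 7.00 in MPTP libraries and 6.96, 8.39 and 7.89 in Control libraries. The summed level of 10 mature oligodendrocyte markers was 13520 to 14852 CPM in MPTP+PF4 libraries, 7701 to 16123 CPM in MPTP libraries and 16653, 27174 and 24170 CPM in Control libraries 1, 2 and 3. Haemoglobin transcripts took 0.628% of the counts of Control 2, 0.0792% of Control 3 and at most 0.0386% of any other library, so this measure marked mainly Control 2. Transcript length moved with the fold changes as well: of genes with an implied length (from counts and FPKM) under 1500 bases, 28.9% were lower in MPTP than in Control at an unadjusted p under 0.05, beside 14.9% between 1500 and 3000 bases and 6.33% above 3000 bases. The 2 members under 1500 bases, Map1lc3a (1159 bases) and Gabarap (1409 bases), were both among those lower. Of the longer members, 5 of 16 between 1500 and 3000 bases and 3 of 15 above 3000 bases were lower, the last including Npc2 at 3440 bases.

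A wider list of 151 other genes of the pathway was read in the same fit. All 151 were tested and 0 passed the adjusted threshold (edgeR), while DESeq2 called 1 of them, Ctsk, for MPTP over Control. For MPTP over Control, 24 were lower (15.9%, beside 12.9% of all genes) and 7 higher (4.64%, beside 5.32%) at an unadjusted p under 0.05, shares near those of all genes, with a median log2 fold change of -0.01. Those with the smallest p were Ctsk, a collagen-degrading cathepsin (-1.41, SE 0.39), Ctsf, another cysteine cathepsin (-0.93, SE 0.27), Atg4d, a protease that processes Atg8 proteins (-0.92, SE 0.27), and Tmem63a, a mechanically gated channel of the lysosomal membrane (-0.93, SE 0.28). The proton pump that acidifies the lysosome had 5 of 18 subunits lower (27.8%, beside 12.9% of all genes) and 0 higher (beside 5.32%) at an unadjusted p under 0.05, among them Atp6v1f at -1.14, with a median of -0.29. In the mTORC1 and Ragulator group 4 of 17 were lower (23.5%, beside 12.9%), among them the Ragulator subunits Lamtor1 (-0.66), Lamtor4 (-1.36) and Lamtor5 (-0.54). In that group 9 of 17 genes were above 0, with a median of 0.01 and a highest value of 0.94. The share lower was 26.1% for the wider membrane genes, 17.1% for hydrolases and 14.3% for conjugation. It was 7.69% for autophagosome fusion, 5.88% for initiation, and 0% for sorting and for receptors with mitophagy.

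For MPTP+PF4 over Control, 27 of the 151 were lower (17.9%, beside 12.1% of all genes) and 8 higher (5.3%, beside 6.25%) at an unadjusted p under 0.05, with a median of 0.01. Ctsf stood at 49.1, 50.8 and 42.4 CPM in MPTP+PF4 libraries and 56.3, 131 and 88.6 CPM in Control libraries (-0.95, SE 0.27). Ids, which degrades heparan and dermatan sulfate, ran the other way, at 622, 683 and 717 CPM in MPTP+PF4 libraries and 532, 302 and 394 CPM in Control libraries (0.72, SE 0.21). Ctso, a cysteine cathepsin, was also higher (0.62, SE 0.19), and Lamtor4 was lower (-1.33, SE 0.42).

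For MPTP+PF4 over MPTP, 0 of the 151 had an unadjusted p under 0.05, beside 2.01% of all genes. Groups did not overlap for 4 of the 151 higher in MPTP+PF4 (3.04% of all genes) and for 3 lower (4.07% of all genes). The smallest p was that of Ctsk, 0.0894, at 3.47, 4.07 and 3.35 CPM in MPTP+PF4 libraries and 1.98, 2.35 and 2.22 CPM in MPTP libraries. The groups did not overlap, and its log2 fold change was 0.73 (SE 0.38, edgeR adjusted p 1). Nrbf2, a subunit of the autophagy lipid kinase complex, followed at 0.35 (SE 0.19), then Atg4a at 0.28 and the mitophagy receptor Bnip3 at 0.20.

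In the authors' deposited table, 3 of the 33 genes were called lower in MPTP than in Control: Npc2, Map1lc3a and Gabarap. They made up 9.09%, beside 5.84% of the genes with a call, and 0 of the 33 were called higher, beside 2.12%. The authors' calls follow their own rule, named as DESeq2 with a cut on the p-value and a cut on the fold change. The rule does not state that the p-value was adjusted. Its calls therefore cannot be set against those made above at the adjusted threshold. Between MPTP+PF4 and MPTP the authors' deposited table called 0 members, beside 0.205% of the genes with a call as up and 1.2% as down. Map1lc3a alone was called between MPTP+PF4 and Control in the authors' deposited table, 3.03% of the members beside 4.77% of the genes with a call in that direction. That call in the authors' deposited table reads as up, since its values run as Control over MPTP+PF4.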

How the data were processed

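RNA from tissue of 9 mice was sequenced. The authors deposited 1 table of whole-number counts and FPKM per gene and library, with their calls in words for each pair of groups, per the file headers. The submitters' processing notes name the build mm9; aligner, counting program and strand setting are not given in the sources used here, so overlapping genes cannot be told apart. Of 29001 lines, 10 with broken fields were left out. The deposited counts went into edgeR 4.0.16 under R 4.3.3 (quasi-likelihood test, robust, TMM, filterByExpr, 1 fit of 9 libraries on the group, adjustment over 17285 genes), checked on simulated data. CPM uses TMM-scaled totals, and the standard error (SE) is the log2 fold change over the square root of F. Unadjusted p-values under 0.05 are counted as a description. The floor of 3 counts covers counting error only.

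Members, lists and alternatives were chosen with earlier results of these data known. The rule names members past the adjusted threshold, or else the 8 with the smallest p, and 4 wider genes per comparison; others were named after their values were seen. Alternatives were size factors by relative log expression, DESeq2 1.42.0, no filter, 1 CPM in 3 samples, 6 samples per fit, a replicate block, each library left out, and both sets of libraries that stand apart left out. Gene positions are GENCODE's for GRCm38, not converted.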

Additional observations from a re-analysis of the deposited data

How the results depend on the processing

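Size factors by relative log expression, no low-count filter and at least 1 CPM in 3 samples moved no count by over 1.5 times. DESeq2 called 287 genes for MPTP over Control (1 member), 16 for MPTP+PF4 over MPTP and 10 for MPTP+PF4 over Control. With 6 samples per fit, wider genes with an unadjusted p under 0.05 numbered 17, 1 and 19 in that order of comparisons (11.3%, 0.662% and 12.6%, beside 13.8%, 2.92% and 9.8% of all genes). Without Control 1 and MPTP+PF4 2, MPTP over Control had 5629 genes and 12 members called, 17 members not overlapping (51.5%, beside 60.8% of all genes) and 83 wider genes under 0.05 (55%, beside 45.2%). MPTP+PF4 over Control had 5980 genes and 11 members called, 15 members under 0.05 (45.5%, beside 46.3%), 25 not overlapping (75.8%, beside 75.1%) and 84 wider genes under 0.05 (55.6%). MPTP+PF4 over MPTP had 1 member under 0.05 (3.03%, beside 4.76%), 4 not overlapping (12.1%, beside 21.6%) and a member median of -0.052. Without Control 2, Control 3 and MPTP+PF4 2, 1 gene was called for MPTP over Control and 1 for MPTP+PF4 over Control, with 0 members and 0 wider genes under 0.05 in both (1.36% and 1.65% of all genes). Members not overlapping then numbered 13 for MPTP over Control (39.4%, beside 34.6%), 23 for MPTP+PF4 over Control (69.7%, beside 67.8%) and 3 for MPTP+PF4 over MPTP (9.09%, beside 21.9%), which had 1 wider gene under 0.05 (0.662%, beside 4.93%); groups of 1 or 2 libraries separate more easily. The wider median for MPTP+PF4 over Control was -0.044.

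With each library left out in turn, MPTP over Control had 0 to 4577 genes and 0 to 12 members called, 2 to 15 members under 0.05 (6.06% to 45.5%, while all genes ran from 5.9% to 42.3%), 6 to 17 not overlapping (18.2% to 51.5%, while all genes ran from 18% to 60.4%), a member median of -0.26 to -0.070 and 8 to 79 wider genes. MPTP+PF4 over Control had 0 to 4539 genes and 0 to 9 members called, 1 to 15 members under 0.05 (3.03% to 45.5%, all genes 4.3% to 41.3%), 6 to 19 not overlapping (18.2% to 57.6%, all genes 12.3% to 57%), a member median of -0.32 to -0.095 and 10 to 81 wider genes; its lowest counts came without Control 2 or MPTP+PF4 3. MPTP+PF4 over MPTP had 0 to 1 members under 0.05 (0% to 3.03%, all genes at most 2.95%), 0 to 9 not overlapping (0% to 27.3%, all genes 7.09% to 21.7%), 0 to 2 wider genes and a member median of -0.035 to 0.088. Its Gaa log2 fold change ran from -0.83 to 0.077 and reversed without MPTP 2. The cause of these moves was not tested.

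Same-numbered libraries deviated together with correlations of -0.29 to 0.52. These values cannot decide whether the numbers pair the samples, since libraries of 1 group differ in tissue markers. The labels state no pairing, and the main fit used none. With the replicate number as a block, 8 members had an unadjusted p under 0.05 for MPTP over Control (24.2%, beside 22.7% of all genes) and 8 for MPTP+PF4 over Control (24.2%, beside 22.3%), shares near those of all genes, and 0 genes were called.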

Other observations

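Single libraries set the extreme of some members without a matching move in the rest of their group. Atg7 was at 8.79 CPM in Control 3, beside 19.6 to 25.2 CPM in the other 8 libraries. Atg16l1, its partner in conjugation, was at 31.4 CPM in MPTP+PF4 2, beside 46.3 and 48.4 CPM in the other MPTP+PF4 libraries. Optn was lowest in MPTP 3, at 8.0 CPM, but its whole group was spread, with 12.8 CPM in MPTP 1 and 20.5 CPM in MPTP 2.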
